A study of Mus musculus with 13 samples.

Results

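The 8 core genes of the Hedgehog pathway, Shh, Ptch1, Smo, Gli1, Gli2, Gli3, Sufu and Hhip, were taken by name from the 55450 annotated genes of GENCODE M21 (mouse genome build mm10), and the accessible regions at each were read from 13 ATAC-seq peak lists. The lists came from oligodendrocyte precursor cells (OPCs, the proliferating cells that give rise to myelinating oligodendrocytes), immunopanned on anti-PDGFRa from the brainstem or the dorsal telencephalon (labelled cortex) of mice at P5 to P7, and cultured without differentiation. Control cultures gave 3 brainstem and 3 telencephalon libraries, and cultures from K27M mice, a Cre-dependent knock-in of the histone mutation H3.3 K27M, gave 3 brainstem and 4 telencephalon libraries. The labels name the litters AMGFAP-Cre;K27M and the study names the driver hGFAP-Cre, active in neural stem and progenitor cells. Cre activity was therefore not limited to OPCs. The share of cells that carried the mutation in these cultures is not given. The study's single-cell methods describe the littermate controls as lacking Cre, with the stop cassette still in place, and do not say so separately for these cultures. Tissue of a litter was pooled by region and genotype, so a library is a culture of pooled pups, and the cultures carry the numbers 41, 51, 59 and 61.

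The Hedgehog pathway passes a secreted signal to the nucleus. A ligand such as Sonic hedgehog binds the receptor Patched on the cell surface, which releases Smoothened, and Smoothened frees the Gli transcription factors from Sufu so that they act as activators instead of being cut into repressors. Ptch1, Hhip and Gli1 are themselves targets of the Gli factors, and in the embryonic ventral neural tube the ligand sets up the domain in which the first OPCs arise.

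A peak is a stretch in which the transposase cut more often than in the local background of the same library, and its fold enrichment is that excess averaged over the peak. The lists held 16879 to 52466 peaks (median 36054), so a gene could lack a peak because its list was short, and each gene was therefore also looked up with every list reduced to the 16879 most significant peaks. The strength of a peak is given as its fold enrichment and as its percentile, the share of the peaks in the same list with a lower fold. The OPC markers Pdgfra, Olig1, Olig2 and Sox10 had a promoter peak in all 13 libraries and Cspg4 in 3. The microglial genes Cx3cr1 and Csf1r, the endothelial genes Cdh5 and Tek and the myelin genes Mog and Mag had none in any library. The astrocyte genes Gfap and Slc1a2 and the neuronal genes Snap25 and Syt1 had one in 13.

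The start regions of the pathway differ in their base composition. RefSeq (GRCm38.p6) gave a promoter window of 300 bp for 6 of the 8 genes. Counted over these windows, the CpG dinucleotides, at which vertebrate DNA is methylated and which cluster at the starts of developmental genes, numbered 47 at Ptch1, 39 at Gli3, 30 at Hhip, 28 at Gli2, 17 at Smo and 12 at Sufu, against a median of 7 over all 32851 windows. The 250 bases before the RefSeq start are shown for the receptor pair, for Gli3 and for Hhip, whose peaks differ most below, with every CpG in capitals, 5′ to 3′ on the strand of the gene. They lie at chr13:63565736-63565985 (Ptch1, minus strand), chr6:29735247-29735496 (Smo, plus strand), chr13:15463473-15463722 (Gli3, plus strand) and chr8:80058009-80058258 (Hhip, minus strand).
Ptch1: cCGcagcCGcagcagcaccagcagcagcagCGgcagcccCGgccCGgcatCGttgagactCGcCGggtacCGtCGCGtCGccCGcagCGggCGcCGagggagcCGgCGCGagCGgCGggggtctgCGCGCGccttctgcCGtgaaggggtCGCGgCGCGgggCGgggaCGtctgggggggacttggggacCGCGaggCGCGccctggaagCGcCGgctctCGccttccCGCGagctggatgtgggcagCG
Smo: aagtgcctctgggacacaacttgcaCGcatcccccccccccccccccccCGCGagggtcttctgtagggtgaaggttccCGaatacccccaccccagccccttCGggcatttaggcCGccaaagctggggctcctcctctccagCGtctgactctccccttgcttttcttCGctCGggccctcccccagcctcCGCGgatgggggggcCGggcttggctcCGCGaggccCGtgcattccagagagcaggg
Gli3: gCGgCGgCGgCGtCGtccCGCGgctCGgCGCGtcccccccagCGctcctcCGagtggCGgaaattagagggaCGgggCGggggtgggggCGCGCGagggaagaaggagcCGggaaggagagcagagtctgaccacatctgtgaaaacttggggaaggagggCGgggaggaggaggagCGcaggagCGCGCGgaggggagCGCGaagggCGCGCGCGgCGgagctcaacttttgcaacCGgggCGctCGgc
Hhip: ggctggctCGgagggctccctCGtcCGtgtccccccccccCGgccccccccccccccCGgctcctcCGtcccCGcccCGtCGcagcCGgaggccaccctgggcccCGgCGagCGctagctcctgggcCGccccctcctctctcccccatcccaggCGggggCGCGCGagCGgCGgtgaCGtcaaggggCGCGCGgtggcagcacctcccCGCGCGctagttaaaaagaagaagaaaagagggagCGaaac

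The RefSeq start of Ptch1 is an internal start, 7.86 kb into the gene, and that of Gli3 lies 0.49 kb into the gene. A called peak overlapped the Ptch1 window in 4 of 13 libraries and the Gli3 window in 7, compared with 13 of 13 at Smo, Gli2, Sufu and Hhip. At the 5′-most start of Ptch1, outside this window, a peak was called in all 13. Smo, with fewer CpG than Ptch1, Gli3 or Hhip, had the highest mean percentile of the 6 windows.

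The letters to which Gli factors bind, TGGGTGGTC or GACCACCCA on the other strand, were searched in the same windows and around the peaks. None of the 6 promoter windows held them, nor did any of the 51 windows of the wider Hedgehog list, and 83 of all 32851 windows did (0.253%). In windows of 2001 bp centred on the peaks merged over the libraries, 4 of 105 at these loci held the letters (3.81%), compared with 1606 of 99647 over the genome (1.61%). The windows overlap the same genes, and the matches are given as a description. Of the 4, 3 lay at Ptch1. The first was 7.16 kb into the gene in an intron, at chr13:63566435-63566443, and was covered by a called peak in 10 libraries (4 of 6 brainstem, 6 of 7 telencephalon). This match is upstream of the coding start 7.86 kb into the gene. It is inside the promoter as set below, which reaches 2 kb upstream, and outside the 300 bp window. The second was 0.13 kb into the gene in an annotated exon, at chr13:63573465-63573473, and was covered in all 13. The third, at -11.95 kb from the Ptch1 start, was covered in no library. The match at Smo, at -16.43 kb from its start, was covered in 5. The covered pair at Ptch1 is shown with the match in capitals, on the strand of the gene, with 209 bases for the intronic match at chr13:63566335-63566543 and 25 for the exonic match at chr13:63573457-63573481.
Ptch1 intronic match: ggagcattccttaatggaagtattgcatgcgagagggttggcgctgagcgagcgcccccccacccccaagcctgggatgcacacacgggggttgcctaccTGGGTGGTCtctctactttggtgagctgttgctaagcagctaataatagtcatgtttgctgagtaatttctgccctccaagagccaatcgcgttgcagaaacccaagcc
Ptch1 exonic match: gcgcggcaGACCACCCAcgccgagg

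With a promoter set as 2 kb upstream to 1 kb downstream of any annotated start, a peak was called at 88 of the 104 combinations of gene and library. Ptch1, Smo, Gli2, Sufu and Hhip had a promoter peak in 13 of 13 libraries, Gli1 in 12, Gli3 in 10 and Shh in 1. Among all protein-coding genes, 42% had a promoter peak in all 13 libraries and 30.6% in none. At 16879 peaks a list, 72 of the 104 remained: Ptch1, Smo, Gli2 and Sufu in 13 libraries, Hhip in 10, Gli1 in 9, Gli3 in 1 and Shh in none. At that list length 30.3% of protein-coding genes had a promoter peak in all 13 libraries and 43.5% in none. Each library had a promoter peak at 6 to 8 of the 8 genes.

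**Figure D1:**
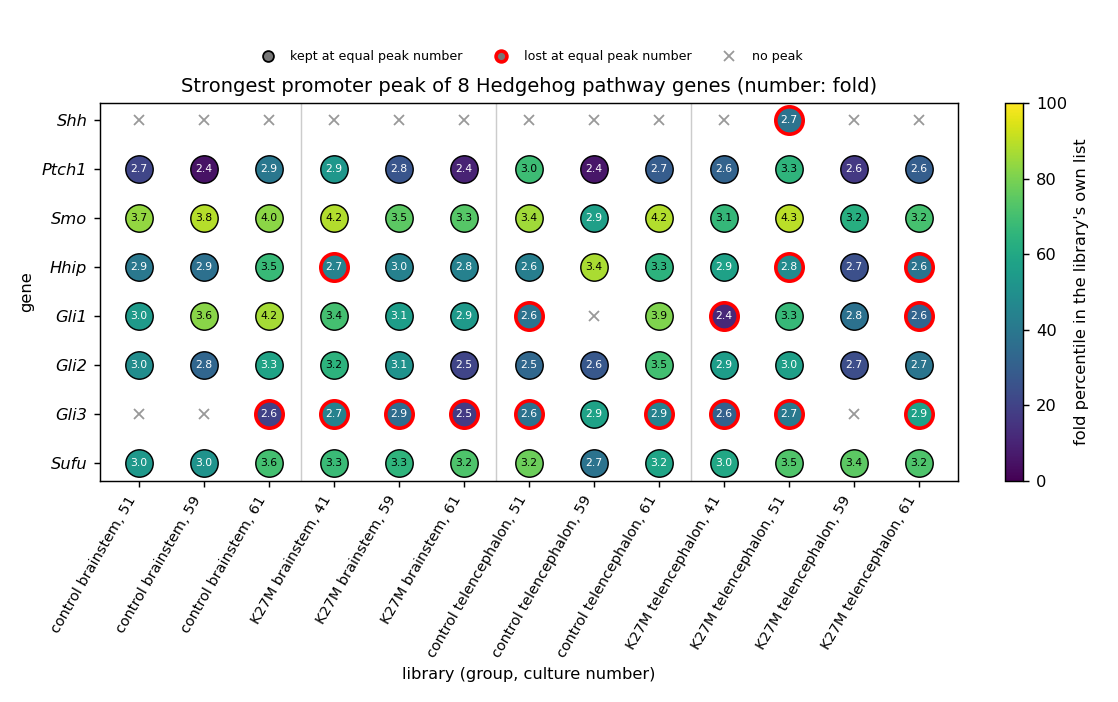
Promoter peaks of the 8 Hedgehog genes (rows) in the 13 libraries (columns, by group and culture number), coloured by the percentile of the fold enrichment within the library's own list, with the fold written in the circle, a red rim where the peak was lost at equal list length and no circle where none was called. Ptch1, Smo, Gli2, Sufu and Hhip fill their rows, Gli1 lacks a peak in 1 library, Gli3 in 3, and Shh has a peak in 1.

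The ligand gene Shh (chr5:28456815-28467256, minus strand) seldom had a called peak at its start. A peak reached its promoter window in 1 of 13, K27M telencephalon culture 51, with a fold enrichment of 2.66 at percentile 38.3. That peak was 2243 bp wide and did not cover the start. It belonged to a merged region at chr5:28464504-28466875, centred 1.6 kb into the gene, and called in 10 libraries (5 brainstem and 5 telencephalon) with a mean percentile of 15.6. It also lies at the annotated starts of the noncoding genes 9530036O11Rik and Gm26894. None of these calls remained at equal list length.

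Ptch1 (chr13:63508328-63573598, minus strand), the receptor and a target of its own pathway, had a promoter peak in every library, on average low in its list. The fold enrichment of its strongest promoter peak was 2.66, 2.44 and 2.89 in control brainstem (cultures 51, 59 and 61) and 2.91, 2.77 and 2.40 in K27M brainstem (41, 59 and 61). In telencephalon it was 3.00, 2.36 and 2.70 in control cultures (51, 59 and 61) and 2.61, 3.27, 2.63 and 2.55 in K27M cultures (41, 51, 59 and 61). The 4 groups overlapped, with K27M telencephalon culture 51 the highest. The mean was 2.71 ± 0.26 (SD, n = 13). The percentile ranged from 4.74 to 68.7 with a mean of 30.8, whereas protein-coding genes with a promoter peak in all libraries had a median of 75.7 (quartiles 59.6 and 87.3). The strongest peak stood at the 5′-most start in 8 libraries, at a merged region centred 7.7 kb into the gene in 3 and near the noncoding start 28.28 kb into the gene in 2, control telencephalon cultures 51 and 61. The value of a library does not always come from the same place.

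Taken place by place, a merged peak covered the region of the 5′-most Ptch1 start in all 13 libraries at a mean fold of 2.61 ± 0.30 (SD, n = 13), and a second, centred 7.7 kb into the gene, also in all 13 at 2.39 ± 0.19. The merged region around the start at 28.28 kb, at chr13:63543059-63545445, was called in 6 K27M and 3 control libraries. That is too many for the exact test described below. The 4 libraries without it were control brainstem cultures 51 and 59, K27M brainstem culture 61 and control telencephalon culture 59, the shortest list. Within 500 bp of the 28.28 kb start, 1 of 10 annotated at Ptch1, a peak was called in 5 K27M and 0 control libraries. This narrower count was not tested.

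Smo (chr6:29735503-29761365, plus strand), the transducer that Patched holds back, had the strongest promoter peak of the 8. Its fold enrichment was 3.71, 3.85 and 4.05 in control brainstem (cultures 51, 59 and 61) and 4.22, 3.53 and 3.26 in K27M brainstem (41, 59 and 61). Over telencephalon cultures it was 3.43, 2.90 and 4.24 in control cultures (51, 59 and 61) and 3.09, 4.34, 3.18 and 3.18 in K27M cultures (41, 51, 59 and 61). Brainstem and telencephalon overlapped, and the lowest value was that of control telencephalon culture 59. The mean was 3.61 ± 0.49 (SD, n = 13), at percentiles of 55.9 to 89.8. The peak had a median width of 1225 bp and covered the start in all 13 libraries.

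Hhip (chr8:79965851-80058006, minus strand), which encodes a membrane protein that binds and traps the ligand, had a recurrent peak at 1 place, at or next to its start. The fold enrichment there was 2.86, 2.85 and 3.50 in control brainstem (51, 59 and 61) and 2.71, 2.95 and 2.78 in K27M brainstem (41, 59 and 61). In the telencephalon it was 2.61, 3.41 and 3.34 in control cultures (51, 59 and 61) and 2.93, 2.84, 2.72 and 2.64 in K27M cultures (41, 51, 59 and 61). The K27M libraries lay in a narrow range, 2.796 ± 0.116 (SD, n = 7), inside that of the control libraries, 3.095 ± 0.367 (SD, n = 6), of which cultures 61 of both regions and control telencephalon culture 59 were high. The peak was wide (median 2296 bp, 714 to 3249), compared with a median of 759 bp over all 487975 deposited peaks, and was as narrow as 714 bp in control telencephalon culture 59, where its percentile was highest (87.4). The wide peaks ran from the start into the gene. Where the overlap had to be the larger part of the peak or of the promoter window, 5 libraries kept the promoter peak.

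The Gli factors, which carry the signal to the genome, differed from each other. Gli1 (chr10:127329882-127341974, minus strand), the activator whose own transcription follows pathway activity, had a promoter peak in 12 of 13 libraries, but not at its 5′-most start. Its peak lay at chr10:127338780-127339962, centred 2.6 kb into the gene and next to a coding start at 127339959. Within 500 bp of that start a peak was called in 11 libraries, and within 500 bp of the 5′-most start in 4, there at a mean percentile of 3.0. The fold enrichment of the strongest promoter peak was 3.04, 3.62 and 4.23 in control brainstem (51, 59 and 61) and 3.40, 3.13 and 2.91 in K27M brainstem (41, 59 and 61). Among telencephalon cultures it was 2.57 and 3.86 in control cultures (51 and 61, with none in 59) and 2.44, 3.33, 2.84 and 2.58 in K27M cultures (41, 51, 59 and 61). The regions overlapped, and 4 of the 6 telencephalon values lay below the lowest brainstem value. The percentile averaged 67.0 ± 14.8 in brainstem (SD, n = 6) and 44.3 ± 25.1 in telencephalon (SD, n = 6). At equal list length the peak was kept in 6 of 6 brainstem and 3 of 7 telencephalon libraries. That is 9 libraries, too many for the exact test described below, so this count was not tested. In the limma fit below, brainstem minus telencephalon was 0.13 in log2 fold (95% interval -0.04 to 0.29, adjusted limma p of 0.967).

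Gli2 (chr1:118834132-119053619, minus strand), the main activator upstream of Gli1, had a peak within 500 bp of its 5′-most start in every library, which covered the start itself in 11. The fold enrichment of its strongest promoter peak was 2.97, 2.81 and 3.25 in control brainstem (51, 59 and 61) and 3.20, 3.06 and 2.54 in K27M brainstem (41, 59 and 61). From telencephalon cultures it was 2.52, 2.65 and 3.48 in control cultures (51, 59 and 61) and 2.90, 3.03, 2.71 and 2.65 in K27M cultures (41, 51, 59 and 61). All groups overlapped around a mean of 2.91 ± 0.29 (SD, n = 13). A second peak, at a noncoding start 71.03 kb into the gene, was called in 8 libraries, 4 of each region and 4 of each genotype, and was the stronger of the pair in 2.

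Gli3 (chr13:15463235-15730026, plus strand), the main repressor in the absence of ligand, had the faintest promoter of the 3. Its fold enrichment was 2.61 in control brainstem culture 61 and 2.71, 2.85 and 2.50 in K27M brainstem (41, 59 and 61). The telencephalon values were 2.56, 2.92 and 2.92 in control telencephalon (51, 59 and 61) and 2.61, 2.70 and 2.90 in K27M telencephalon (41, 51 and 61). There was no peak in control brainstem cultures 51 and 59 and K27M telencephalon culture 59. The mean percentile was 28.9 ± 12.6 in brainstem (SD, n = 4) and 44.6 ± 10.9 in telencephalon (SD, n = 6). No Gli3 promoter peak had a p as low as 1e-10, and at equal list length only that of control telencephalon culture 59 was kept, the list from which no peak was removed. The noncoding genes Gm26645 and Gm6556 share this promoter region.

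Sufu (chr19:46396896-46488804, plus strand), which binds the Gli factors in the cytoplasm, had the most significant promoter of the 8, with a p of at most 1e-10 in 11 of 13 libraries. Of the 26 combinations of gene and library that met this p, the rest were Smo and Gli1 with 4 each, Ptch1 and Gli2 with 3 each and Hhip with 1. The fold enrichment of Sufu was 3.03, 3.02 and 3.59 in control brainstem (51, 59 and 61) and 3.32, 3.31 and 3.23 in K27M brainstem (41, 59 and 61). For telencephalon cultures it was 3.20, 2.75 and 3.20 in control cultures (51, 59 and 61) and 2.96, 3.51, 3.43 and 3.23 in K27M cultures (41, 51, 59 and 61). The regions overlapped, as did the genotypes, around a mean of 3.21 ± 0.23 (SD, n = 13). The peak was broad (median 2416 bp, 2117 to 2617) and also covers the promoter of Actr1a, a neighbouring gene for a dynactin subunit, so the 2 cannot be told apart.

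**Figure D2:**
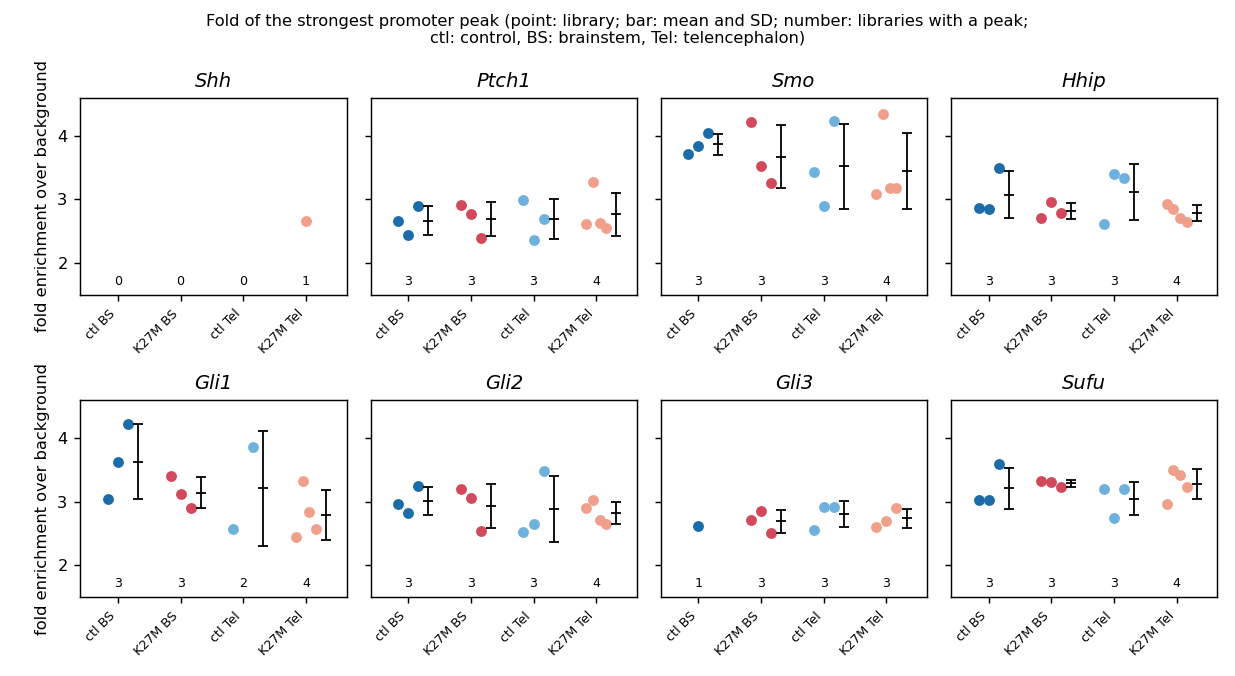
Fold enrichment over local background of the strongest promoter peak (y axis), 1 panel per gene and 1 point per library, in control (ctl) and K27M cultures of brainstem (BS) and telencephalon (Tel), with a bar at the mean ± SD and the number of libraries with a peak at the foot. In every panel with 10 or more values brainstem overlaps telencephalon and K27M overlaps control, and the K27M values of Hhip lie between 2.64 and 2.95.

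The loci, taken as the gene with 50 kb on each side, held 108 merged peaks, of which 14 were called in all 13 libraries (12.96%, compared with 13.1% of the 99746 merged peaks of the whole series) and 43 in 1 library (39.8%, compared with 43.1%). Sufu had the most peaks, a median of 12 per library (5 to 15), followed by Ptch1 with 7 (3 to 11). Smo and Gli2 had 6 (3 to 9 and 1 to 13), Gli1 had 5 (3 to 8), Gli3 had 4 (1 to 9), Shh had 2 (0 to 5) and Hhip had 1 (1 to 3). Hhip and Sufu are about equally long, and the 92.156 kb of Hhip with its flanks had 6 merged peaks, of which 5 were called in 1 library each, compared with 19 at the 91.909 kb of Sufu. The longest gene, Gli3 (266.792 kb), had 23. The total over the 8 loci was 19 to 68 peaks per library, or 1.03 to 1.36 per 1000 peaks of its list.

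**Figure D3:**
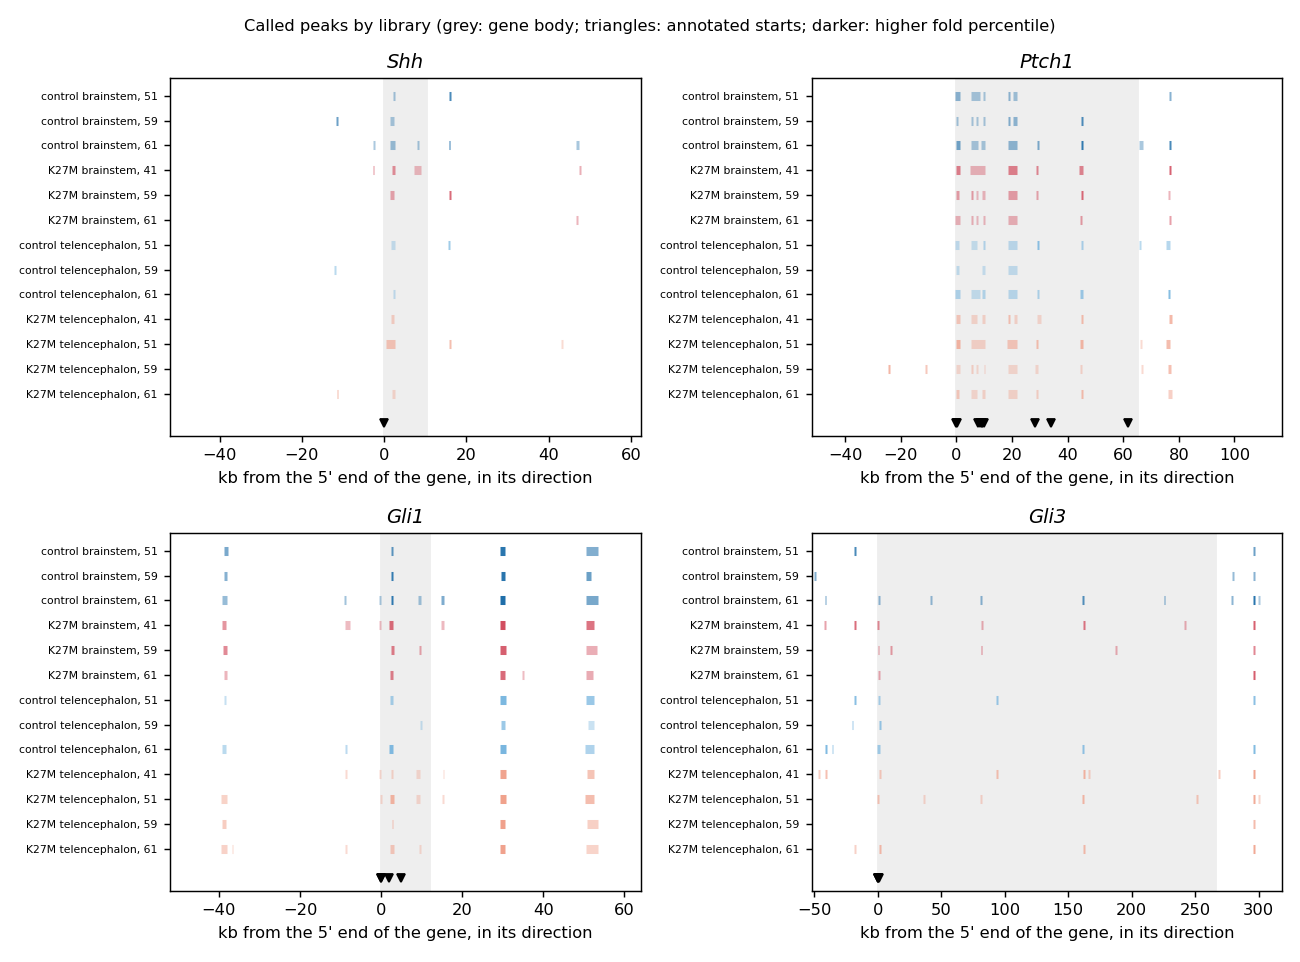
Called peaks at the loci of Shh, Ptch1, Gli1 and Gli3 (1 panel per gene), placed by their distance in kb from the 5′ end of the gene (x axis; grey, gene body; triangles, annotated starts), with 1 row per library, coloured by group and darker for a higher fold percentile. Peaks stack over the start at Ptch1, inside the gene at Shh and Gli1, and past the end of the gene at Gli3, where 12 libraries have a peak.

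Among peaks outside the promoters that were called in all 13 libraries, the strongest in each locus was named. At Ptch1 it was intronic, 20.1 kb into the gene at chr13:63551691-63555218, with a mean fold of 2.55 ± 0.21 (SD, n = 13) and a mean percentile of 20.9. At Smo, Gli1 and Sufu the strongest peaks lay in the flanks at the promoters of other genes. They were Ahcyl2 33.1 kb from the Smo start (chr6:29767697-29769459, fold 3.94 ± 0.46), Mars 30.1 kb from the Gli1 start (chr10:127311182-127312659, 4.09 ± 0.69) and 2310034G01Rik 47.9 kb upstream of Sufu (chr19:46348334-46349602, 3.53 ± 0.55; SD, n = 13 for each). Shh, Gli2, Gli3 and Hhip had none. Chosen after the values were seen, a pair of peaks called in 12 libraries is added for the Gli factors: the first in an intron of Gli2, 76.8 kb into the gene at chr1:118976295-118977374 (mean percentile 57.0), and the second past the end of Gli3 at chr13:15758616-15760398 (mean percentile 68.7), which was higher than that of the Gli3 promoter (38.3). The library without either was control telencephalon culture 59, with the shortest list.

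Whether a peak was called more often in brainstem or telencephalon, or in K27M or control, was asked with Fisher's exact test (two-sided) for features called in 5 to 8 of the 13 libraries, adjusted by Benjamini-Hochberg over all such features. None of the 8 genes had a promoter in that range, so no promoter call could be compared. Over the genome the test called 0% of 1815 promoters by region and 0% by genotype, with an unadjusted p under 0.05 at 2.15% and 1.21%. Of the merged peaks at the loci, 11 were in the range and 0 were called by region or by genotype, with 0 also at an unadjusted p under 0.05. Over the 11706 merged peaks tested in the genome the share called was 0% by region and 0% by genotype, and that at an unadjusted p under 0.05 was 2.36% and 1.26%. The smallest exact p that 6 against 7 libraries can give, 0.000583, was reached by region and by genotype. It did not pass by either, with an adjusted p of 0.840 by region. A locus peak fully split between the groups would therefore not have been called, and nothing is concluded from the 0 of 11. The smallest unadjusted p by genotype was 0.103 (exact), for a peak over an exon of Smo 17.2 kb into the gene, called in 5 of 7 K27M and 1 of 6 control libraries. By region it was 0.286 (exact), shared by a pair of flanking peaks of Gli2, of which the peak beyond the gene's end was called in 2 of 6 brainstem and 5 of 7 telencephalon libraries and the peak 30.0 kb upstream in 4 and 2.

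The strength of the promoter peaks was compared with limma on log2 fold enrichment, centred on the median of each library and with the culture number as a block, over the 11483 genes with a promoter peak in all 13 libraries. The set held 5 of the 8 genes, Ptch1, Smo, Gli2, Sufu and Hhip. None passed the adjusted threshold between regions (0.0174% of all genes did) or between genotypes (0% did). At an unadjusted p under 0.05 there were 0 of 5 by region (5.12% of all genes) and 1 of 5 by genotype (4.39% of all genes), which was Hhip. As a difference in log2 fold, brainstem minus telencephalon was -0.08 at Ptch1 (95% interval -0.22 to 0.07) and 0.06 at Smo (-0.08 to 0.20). It was -0.02 at Gli2 (-0.16 to 0.11), -0.03 at Sufu (-0.17 to 0.11) and -0.10 at Hhip (-0.26 to 0.06). As a ratio of folds, the interval furthest from 1 was that of Hhip, from 0.838 to 1.04. The directions at Ptch1, Gli2 and Sufu turned when the values were not centred.

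K27M minus control was 0.02 at Ptch1 (95% interval -0.14 to 0.18) and -0.08 at Smo (-0.23 to 0.08). It was -0.10 at Gli2 (-0.25 to 0.05), 0.07 at Sufu (-0.08 to 0.23) and -0.20 at Hhip (-0.37 to -0.02). For Hhip this is a ratio of 0.873 in the fold (0.775 to 0.984), with an SE of 0.085 on the log2 scale, an unadjusted limma p of 0.0272 and an adjusted p of 0.999. The estimate was -0.14 in brainstem (-0.39 to 0.10) and -0.25 in telencephalon (-0.47 to -0.03), and the difference between these, 0.11 (-0.21 to 0.42), had an unadjusted limma p of 0.485. Without control telencephalon culture 59 it was -0.11, and without K27M brainstem culture 61 it was -0.27. None of the 5 genes had an unadjusted p under 0.05 for the difference of the genotype effect between regions, where 3.8% of all genes did. Hhip also varied most among libraries, with an SD of the centred log2 fold of 0.186, compared with 0.106 at Ptch1, 0.0999 at Smo, 0.096 at Sufu, 0.084 at Gli2 and a median of 0.126 over all 11483 genes.

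**Figure D4:**
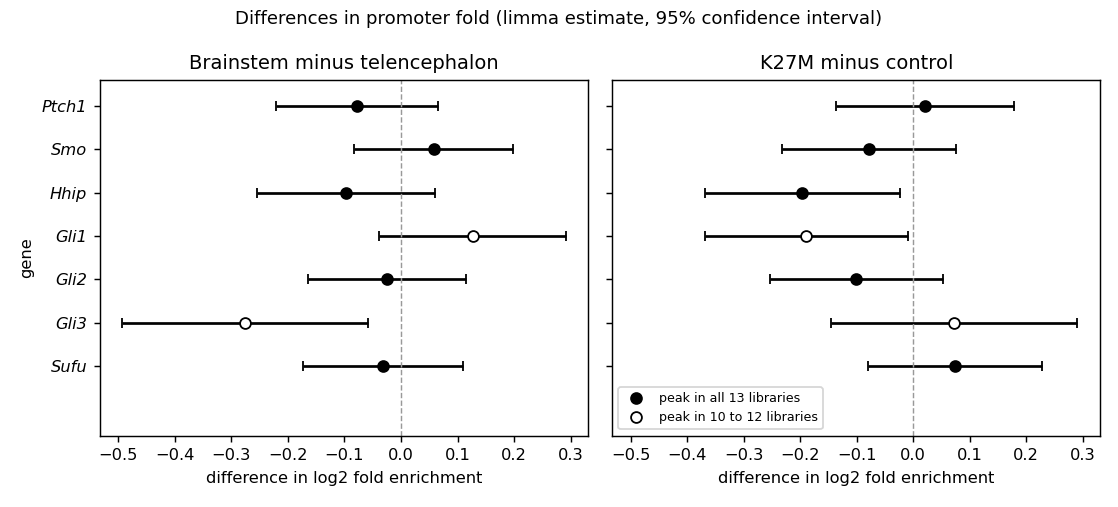
Differences in log2 fold enrichment of the strongest promoter peak (x axis), brainstem minus telencephalon (left) and K27M minus control (right), as limma estimates with 95% confidence intervals, for genes with a peak in all 13 libraries (filled) or in 10 to 12 (open). The intervals of Gli3 by region and of Hhip and Gli1 by genotype lie beyond 0 and none of the 7 genes passed the adjusted threshold.

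Gli1 and Gli3 could be compared in a fit over the 15592 genes with a promoter peak in at least 10 libraries, in which the libraries without a peak are left out of the gene's estimate. None of the 7 genes in that fit passed the adjusted threshold by region (0.0128% of all genes) or by genotype (0% of all genes). At an unadjusted p under 0.05 there was 1 of 7 by region (5.34% of all genes), Gli3, and there were 2 of 7 by genotype (4.44% of all genes), Hhip and Gli1. The fold enrichment of Gli3 gave brainstem minus telencephalon -0.28 (SE 0.11, 95% interval -0.49 to -0.06, unadjusted limma p of 0.0146, adjusted p of 0.902), over 4 brainstem and 6 telencephalon libraries with overlapping values. Gli1 differed by 0.13 between regions (-0.04 to 0.29) and by -0.19 between genotypes (-0.37 to -0.01, unadjusted limma p of 0.0394, adjusted p of 0.999). Both genes lost libraries in which no peak was called, and their values are those of the libraries that remained.

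The same fit over the 13075 merged peaks called in all libraries held 14 merged peaks at these loci. None passed the adjusted threshold by region (0.0229% of all merged peaks) or by genotype (0%), and 0 had an unadjusted p under 0.05 by region (6.32% of all) and 1 by genotype (4.57% of all), the Hhip promoter peak at -0.19. After it, the smallest unadjusted p by genotype were those of the 2310034G01Rik promoter 47.9 kb upstream of Sufu (0.14), the Sufu promoter (0.08), the Smo promoter (-0.07) and the Gli2 promoter (-0.07), each given as K27M minus control in log2 fold. By region they were those of a peak 87.8 kb into Sufu (0.12) and of the Hhip promoter (-0.09), then of the Smo promoter (0.07), the Ptch1 peak at 7.7 kb (-0.08) and the Ptch1 intron peak at 20.1 kb (0.06), each as brainstem minus telencephalon. All of these intervals but that of Hhip by genotype held 0.

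Of the 14, 1 had an unadjusted p under 0.05 for the difference of the genotype effect between regions, where 4.1% of all merged peaks did, and it was the peak at the Mars promoter 30.1 kb from the Gli1 start. Its fold enrichment was 3.93, 3.93 and 5.19 in control brainstem (51, 59 and 61) and 4.86, 3.70 and 3.21 in K27M brainstem (41, 59 and 61). In telencephalon it was 3.44, 2.86 and 4.31 in control cultures (51, 59 and 61) and 3.94, 5.00, 4.47 and 4.27 in K27M cultures (41, 51, 59 and 61). K27M minus control was -0.16 in brainstem and 0.22 in telencephalon, and the difference of -0.38 (SE 0.14, 95% interval -0.66 to -0.09) had an unadjusted limma p of 0.0108 and an adjusted p of 0.999. In the fit over 23957 merged peaks called in at least 10 libraries, 0 of 29 at the loci passed the adjusted threshold by region (0.0292% of all) or by genotype (0%). An unadjusted p under 0.05 was found at 3 of 29 by region (6.87% of all) and 1 of 29 by genotype (4.74% of all). The 3 were the Gli2 intron peak at 76.8 kb, with brainstem minus telencephalon at 0.25 (95% interval 0.07 to 0.44, unadjusted limma p of 0.0087, adjusted p of 0.547), the Gli3 promoter at -0.26 and a peak over an exon of Sufu at -0.25.

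A wider list of 50 Hedgehog genes places the 8 among the rest of the pathway, some genes under 2 roles. Promoter peaks were called in all 13 libraries at 29 (58%, compared with 42% of all protein-coding genes) and in 9 to 12 at 14. They were called in 5 to 8 at 3 (Grk2, Foxf1 and Foxa2), in 1 to 4 at 2 (Shh and Scube3) and in none at 2, the other ligand genes Ihh and Dhh. All 11 negative regulators and Gli processing genes, which include Sufu, the kinesin Kif7, the ubiquitin ligase parts Spop, Cul3 and Btrc and the kinases Gsk3b, Csnk1a1 and the Prkaca group, had a peak in 13 libraries, at a median of the mean percentiles of 80.5. Protein-coding genes with a promoter peak in all libraries had a median of 75.7 (quartiles 59.6 and 87.3). Of the 11 negative regulators and Gli processing genes, 10 still had a peak in 13 libraries at equal list length. The share over protein-coding genes was 30.3% there. Of the receptors and co-receptors, 6 of 8 had a peak in 13 libraries, of ligand processing and release 2 of 5 and of the Gli factors 1 of 3. The same held for 1 of 5 positive regulators at the cilium, 2 of 4 genes of ciliary transport and 7 of 14 commonly used targets in neural cells. In the targets list the counts include Ptch1, Hhip and Gli1 themselves, and Olig2, a marker of the panned cells.

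**Figure D5:**
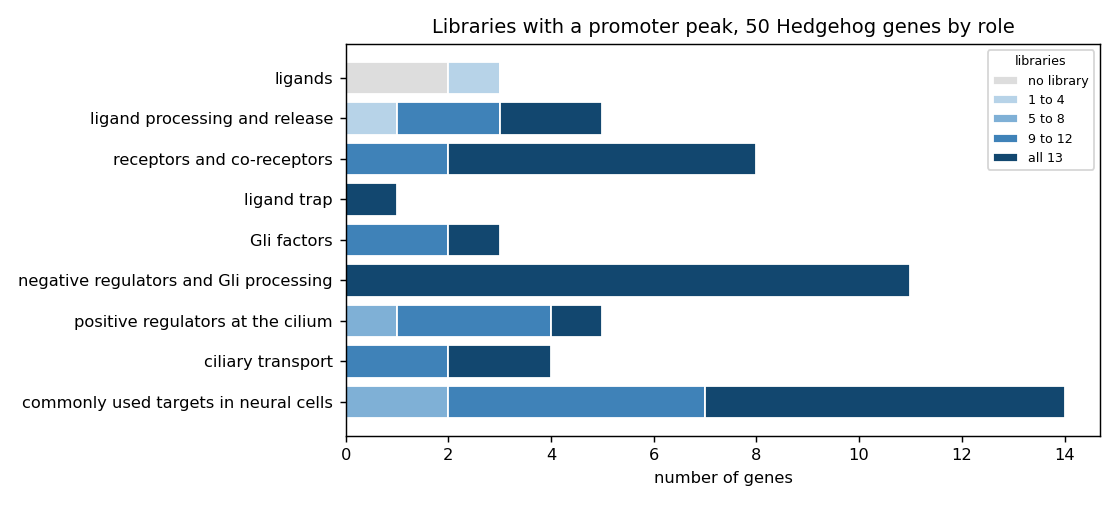
Number of genes (x axis) of the 50-gene Hedgehog list by role, shaded by the number of libraries with a promoter peak. The bar of the negative regulators and Gli processing genes is at all 13 libraries over its length of 11 genes, and none of the 3 ligand genes is.

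Of the 29 genes of the wider list in the promoter fit, 0 passed the adjusted limma threshold by region or by genotype. At an unadjusted p under 0.05 there were 0 by region, where the smallest p was 0.0832 (limma, Gsk3b), and 1 by genotype, Hhip. The median difference over the 29 was -0.0025 by region, compared with -0.0080 over all 11483 genes, and -0.0094 by genotype, compared with -0.00075. Of Grk2, Foxf1 and Foxa2, 0 were called by the exact test.

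The pattern over the libraries of the most variable members was compared with that of 9210 other protein-coding genes with a promoter peak in all 13. The centred log2 fold of Hhip was most like that of Tmem243 (Pearson r of 0.923), Gpcpd1 (0.917) and Zadh2 (0.886), and that of Ptch1 most like Slc25a39 (0.848), Dhx35 (0.817) and Nr6a1 (0.809), each over 13 libraries. These genes are the highest of 9210 and share the libraries and their list lengths with the members, so the r is a description.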

How the data were processed

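ATAC-seq libraries of undifferentiated OPC cultures were made by the authors with the Omni-ATAC protocol and sequenced as read pairs. Reads were trimmed (Trim Galore 0.6.7, cutadapt 3.4), aligned to mm10 (BWA 0.7.17-r1188), cleared of blacklisted regions and used to call broad peaks with MACS2 2.2.7.1 on each library alone, without pooling, per the study's methods and the submitters' processing notes. The study names the nf-core ATAC-seq pipeline and gives a broad-peak command for its ChIP-seq data. The command behind these ATAC-seq lists is not given separately, and their −log10 q reached down to 1.00, the broad cutoff of the ChIP-seq command. The number of reads is unknown, and list length was used in its place.

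The values deposited by the authors are the fold enrichment (a ratio to the local background of the same library, averaged over the peak), the −log10 p and −log10 q of each peak, and a score, the −log10 q times 10 without decimals. None is normalised between libraries. The score was not used.

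Genes and starts were taken from GENCODE M21. Peaks were assigned to promoters (2 kb upstream to 1 kb downstream of any start, 1 bp of overlap) and loci (gene and 50 kb flanks), and peaks of the 13 libraries that overlapped were merged. A promoter takes its value from its strongest peak. Calls were compared with Fisher's exact test, and centred log2 fold enrichment with limma 3.58.1 (trend and robust options, statmod 1.5.0, R 4.3.3), region and genotype as factors and the culture number as a block, because the study's own comparison accounts for matched cultures. That a shared number marks matched cultures is not stated and was assumed. Nothing says that cultures of a group came from separate litters, so p-values measure the spread between these libraries. Tests were adjusted over all features (Benjamini-Hochberg, threshold 0.05) and the scripts were tested on simulated data. Python 3.11.15, numpy 2.4.6, pandas 2.3.3 and scipy 1.17.1 were used for the rest.

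The 8 genes, the wider list, the markers and the tests were chosen with earlier results of these data known. Named were all 8 genes, wider-list genes with a promoter peak in no library or in 5 to 8, the strongest shared peak outside the promoters of each locus, up to 5 locus peaks with the smallest p for each factor, and the 3 genes most alike in pattern to the 2 most variable members. Alternatives were equal list length, stricter p or q, narrower promoters, coding starts, a larger overlap, percentiles, no centring, fewer libraries required, no replicate block and leaving out each library.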

Additional observations from a re-analysis of the deposited data

Results flagged for a closer look

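In 20 groups of 4 libraries, all K27M telencephalon, the lowest and highest value were compared with the others, and 4 stood apart beyond Dixon's 95% critical value (about 1 in 20 groups does so by chance). The promoter of Ptch1 had a fold enrichment of 3.27 in culture 51, against 2.55 to 2.63 in the other 3 cultures. The promoter of Smo had 4.34 in the same culture, against 3.09 to 3.18. The Sufu promoter was at percentile 59.6 in culture 41, against 72.2 to 74.8. At the Gli1 locus, culture 59 had 4 peaks and each of the other 3 cultures had 7. K27M telencephalon culture 51 is also the only library with a peak in the promoter window of Shh, which was lost at equal list length. Its list, of 52164 peaks, was the longest of the telencephalon libraries. The 20 groups are the same 4 libraries at different genes and measures, so they are not independent.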

How the results depend on the processing

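No call changed in the alternatives that were run: none of the 5 promoters in the fit over all 13 libraries (20 to 22 alternatives each) or of the 4 named shared peaks (17 or 18 each) passed an adjusted limma threshold. Gli1 and Gli3 had no alternative, and Shh entered no fit. With p at most 1e-10, promoter peaks were found at 26 of 104 combinations of gene and library, too few for a fit of their strength. At equal list length the libraries with a promoter peak fell from 10 to 1 at Gli3 and from 1 to 0 at Shh. Shh also had 0 without K27M telencephalon culture 51. Hhip had 5 in place of 13 where the overlap had to be the larger part of the peak or of the promoter window. Leaving out 1 library gave 80 to 82 of 96 combinations. The Hhip difference between genotypes ranged from -0.27 to -0.11 when 1 library was left out and had an adjusted limma p from 0.749 to 1.00 over its alternatives.

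Estimates near 0 changed sign. By region, without centring, they were 0.0018 at Ptch1, 0.055 at Gli2, 0.048 at Sufu, 0.058 at the peak 30.1 kb from the Gli1 start and 0.067 at the peak 47.9 kb upstream of Sufu. As percentile points they were 2.06 at Gli2, 0.576 at Sufu, 2.16 at the Gli1 peak and 7.53 at the Sufu peak, and 1.35 by genotype at the Ptch1 peak at 20.1 kb. Without the replicate block, K27M minus control was -0.016 at Ptch1 and -0.014 at the peak 33.1 kb from the Smo start. Of 16 pairs of same-numbered libraries from different groups, 7 had deviations from the group means that correlated above 0.1 (mean 0.081, -0.105 to 0.288). Of 47 pairs of different number, 6 did so (mean -0.027, -0.245 to 0.329). The ranges overlap, and whether a shared number marks a pairing was not tested. The replicate block changed no call: in the exact test stratified by culture number, 0 of 11 locus peaks were called, as without it, and in limma 0 of 5 promoters and 0 of 14 peaks with or without it. Leaving out 1 library gave -0.025 to 0.046 by genotype at Ptch1, -0.082 to 0.0024 by region at Sufu, -0.075 to 0.033 by region and -0.00062 to 0.092 by genotype at the Gli1 peak, -0.014 to 0.039 by region at the Smo peak and -0.029 to 0.031 by region at the Sufu peak. The cause was not tested.

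Without reads, a weak accessible region in a short list cannot be told apart from a closed one, and the fits cover only genes with a peak in all or most libraries.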
